A study of Drosophila melanogaster with 9 samples.

Results

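The scarce miRNAs of the adult fly midgut are those that small RNA sequencing found at all but at a trace. They were taken as the rows of the deposited expression table with a value above 0 in at least 1 of 9 libraries and with 20 RPM (reads per 1000000 miRNA reads) or more in fewer than 3 of them. Rows of 7 hairpins (let-7, miR-100, miR-1003, miR-1007, miR-31b, miR-304 and miR-308) were left out. This gave 62 of the 467 rows in the table and of the 145 rows above 0. A further 10 rows were as scarce but came from the left-out hairpins, 73 rows reached the threshold, and 322 rows stood at 0 in every library. The members were chosen by these RPM levels, so the levels themselves are given as a description.

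The series examined the start and the end of regeneration in the midgut of adult Drosophila melanogaster, with 3 groups of 3 libraries, all from wild-type Oregon-R flies. The Pe day 3 group received the treatment that the labels write as Pe, without spelling it out, and its flies were 7 to 8 days old. The Pe day 0 group received the same treatment at 4 to 5 days of age. The mock group received sucrose, was sampled at day 0 and was also 4 to 5 days old. Whether replicate libraries were made from different sets of flies is not stated in the labels, so the spread behind each p-value may be technical. The sex of the flies is not given in the sources used here.

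A miRNA is cut from a hairpin precursor, and each of the hairpin's arms, named 5p and 3p, can give a mature strand. Usually 1 arm is loaded into Argonaute and kept, and the other is degraded. Many fly miRNAs are confined to a tissue: miR-124 to neurons, miR-1 and miR-133 to muscle, miR-989 and miR-318 to the ovary, the miR-309 cluster to the early embryo and several X-linked hairpins to the testis. A mirtron is a miRNA hairpin made by splicing of a short intron rather than by the nuclease Drosha. A dissected midgut holds enterocytes, enteroendocrine cells and stem cells, and can carry visceral muscle, nerve endings, trachea and pieces of neighbouring organs.

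The libraries held 224873 to 1238105 miRNA reads, so 20 RPM corresponded to 4.5 reads in the shallowest and 24.8 reads in the deepest. No library listed a miRNA at 1 read, the lowest being 2, and a 0 may therefore hide 1 read, which would be 0.808 RPM in the deepest and 4.45 RPM in the shallowest. Pe day 0 replicate 3 stood apart in depth and in ovary miRNAs, so results that rest on it are given with and without it. The 62 scarce miRNAs together took 0.0161% to 0.0531% of the miRNA reads of a library. Their summed level was 230, 275 and 338 RPM at Pe day 3, 232, 317 and 531 RPM at Pe day 0, and 164, 253 and 161 RPM in mock. The means were 281 ± 54.1 RPM at Pe day 3, 360 ± 154 RPM at Pe day 0 and 193 ± 52.6 RPM in mock (SD, n = 3 each), and the ranges of the groups overlapped. In bulk samples, fewer cells of a type and less RNA per cell cannot be told apart.

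Most scarce miRNAs appeared in few libraries. Of the 62, 26 were listed in a single library, 22 in 2 to 5 libraries and 14 in at least 6, and 3 were listed in all 9: miR-987-5p, miR-2a-2-5p and miR-125-3p. Of the 26 seen once, 11 rested on 2 or 3 reads. No library reached 20 RPM for 42 of the 62, 1 library did for 13, and 2 libraries did for 7. Those 7 were miR-987-5p, miR-2a-2-5p, miR-125-3p, miR-1010-3p, miR-7-5p, miR-284-5p and miR-318-3p.

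The threshold cuts through a continuous range. Just inside it, the third-largest value was 19.3 RPM for miR-987-5p, 18.6 RPM for miR-2a-2-5p, 16.9 RPM for miR-125-3p, 16.1 RPM for miR-318-3p and 15.04 RPM for miR-1010-3p. Just outside it, the third-largest value was 22.2 RPM for the shared row of miR-276a-5p and miR-276b-5p, 22.5 RPM for miR-308-5p, 23.1 RPM for both miR-316-3p and miR-988-3p, and 24.2 RPM for miR-282-5p.

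**Figure D1:**
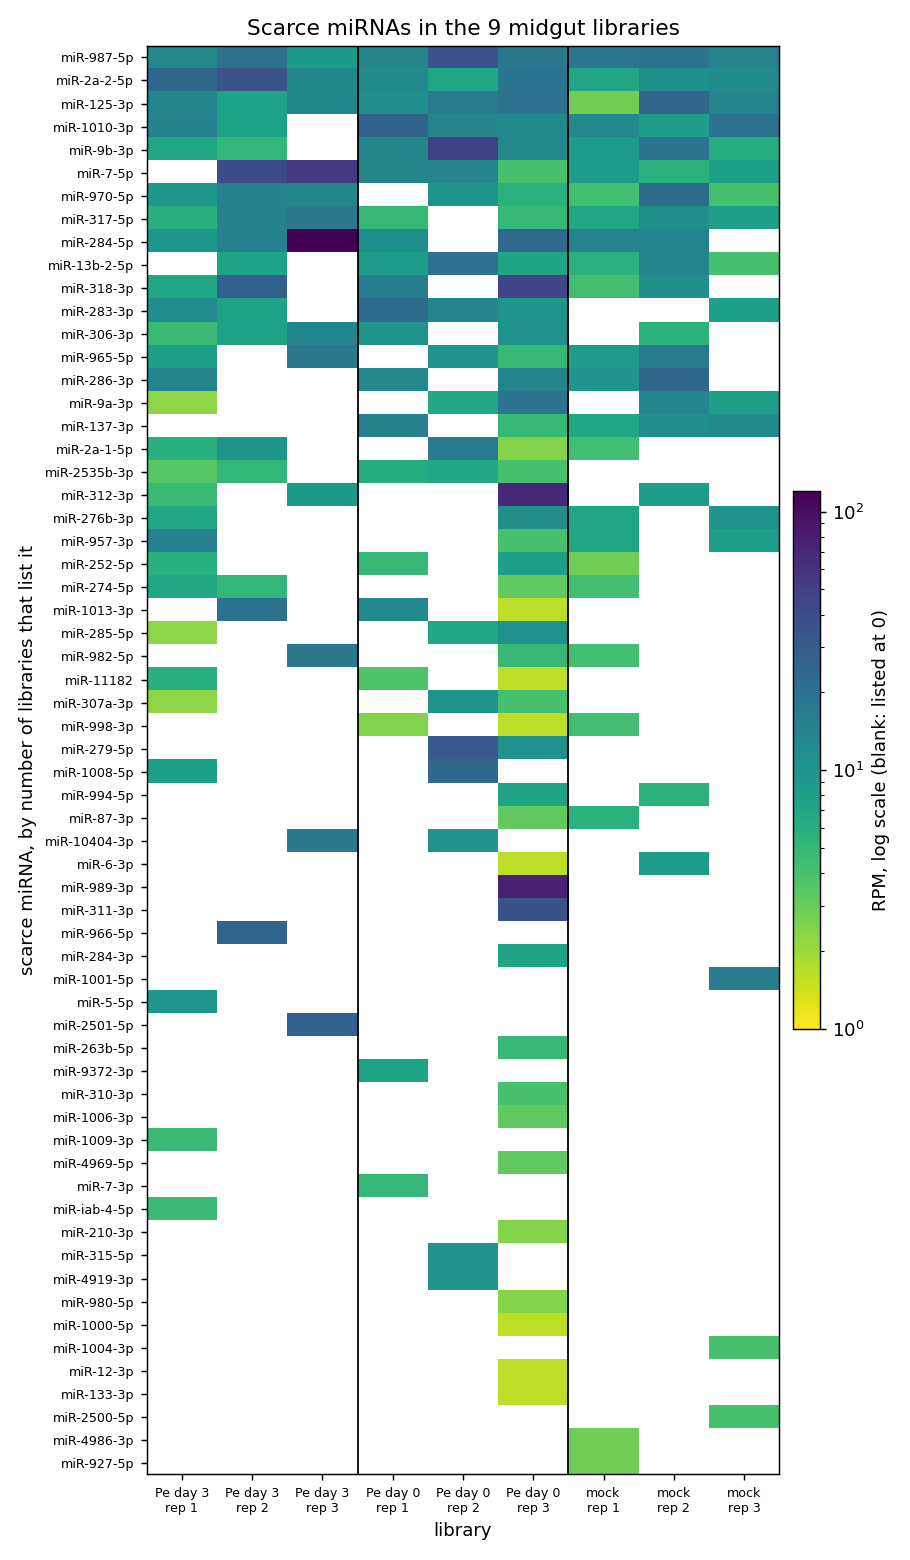
Level of each of the 62 scarce miRNAs (rows, ordered by the number of libraries that list them) in each library (columns, by group), in RPM on a logarithmic colour scale, with blank cells where a miRNA is listed at 0. The upper rows are filled in most libraries, while 26 rows have a single filled cell, 12 of them in Pe day 0 replicate 3.

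Detection by group was dominated by 1 library. At least 1 library listed 35 scarce miRNAs at Pe day 3, 52 at Pe day 0 and 33 in mock, and all 3 libraries of the group listed 7 at Pe day 3, 9 at Pe day 0 and 10 in mock. Pe day 0 replicate 3, the deepest library, listed 46, and it alone held 12 of the miRNAs seen once. Without it, Pe day 0 listed 32, and 50 of the 62 were still seen in some library.

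The other libraries listed 13 to 28 scarce miRNAs. Per library the numbers were 28, 18 and 13 at Pe day 3, 21, 20 and 46 at Pe day 0, and 24, 19 and 17 in mock. In each group the deepest library listed the most. When the reads of every library were thinned to 224873, the expected number with at least 2 reads was 14.2, 13.5 and 13.0 at Pe day 3, 13.8, 17.2 and 20.9 at Pe day 0, and 10.4, 15.3 and 10.4 in mock. The group means at equal depth were 13.6 ± 0.616, 17.3 ± 3.59 and 12.02 ± 2.81 (SD, n = 3) for Pe day 3, Pe day 0 and mock, and the ranges of all 3 groups overlapped.

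**Figure D2:**
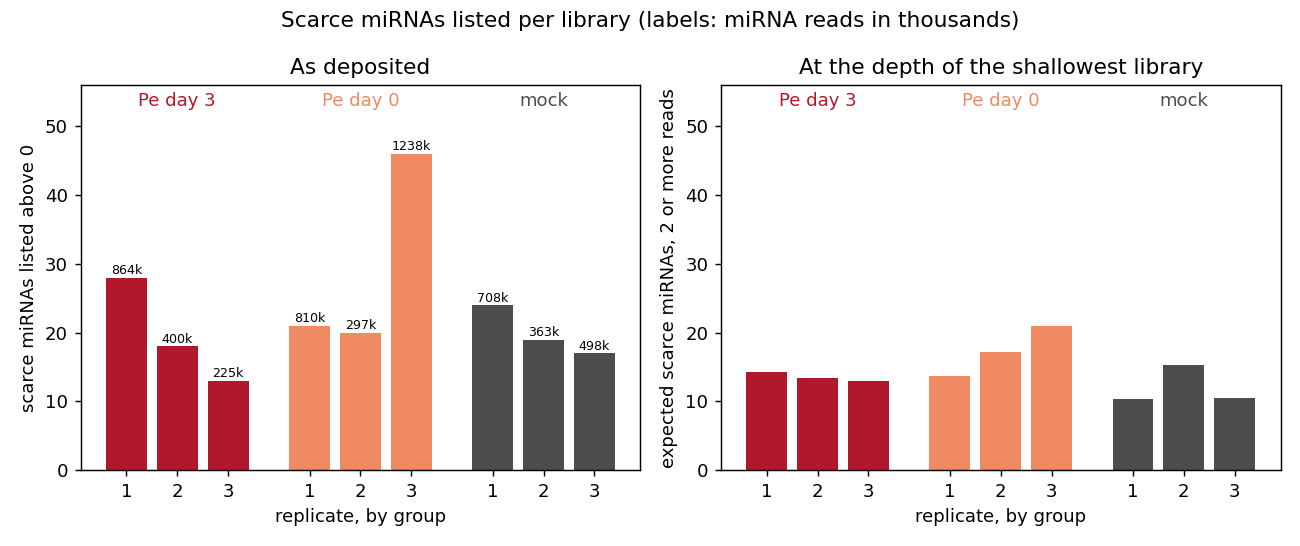
Number of scarce miRNAs per library, by group: above 0 in the deposited table (left, with the library's miRNA reads above the bars, in units of 1000) and the number expected with at least 2 reads after thinning to the shallowest library (right). The bar of 46 for Pe day 0 replicate 3 falls to 20.9 at equal depth, while the other 8 libraries lie between 10.4 and 17.2.

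The overlap of the groups named few miRNAs for any of them. All 3 groups listed 23 scarce miRNAs. Pe day 0 alone listed 17, which became 5 without its replicate 3, Pe day 3 alone listed 5, and mock alone listed 5. The Pe day 3 set was miR-5-5p, miR-966-5p, miR-1009-3p, miR-2501-5p and miR-iab-4-5p, and each was seen in 1 library. The mock set was miR-927-5p, miR-1001-5p, miR-1004-3p, miR-2500-5p and miR-4986-3p, again each in 1 library. These names were chosen after their values were seen.

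Another 7 were listed in both Pe groups and not in mock: miR-285-5p, miR-307a-3p, miR-1008-5p, miR-1013-3p, miR-2535b-3p, miR-10404-3p and miR-11182. A set of 5 was listed at Pe day 0 and in mock but not at Pe day 3: miR-6-3p, miR-87-3p, miR-137-3p, miR-994-5p and miR-998-3p. No miRNA was listed at Pe day 3 and in mock while missing at Pe day 0, a result that rests on Pe day 0 replicate 3. Without that library, miR-274-5p, miR-276b-3p, miR-312-3p, miR-957-3p and miR-982-5p were listed at Pe day 3 and in mock but not at Pe day 0. At Pe day 0, replicate 3 was also the only library that listed miR-6-3p, miR-87-3p and miR-994-5p.

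Of the ovary miRNAs, Pe day 0 replicate 3 held 129 RPM in all, against at most 27.5 RPM in any other library. The list holds miR-989, which acts in border cell migration, and miR-318 and miR-994, which are neighbours on chromosome 3R, with the miR-318 hairpin from 10408302 to 10408369 on the plus strand in the BDGP6 build. miR-989-3p had 77.5 RPM (96 reads) in Pe day 0 replicate 3 and was listed at 0 in the other 8 libraries. miR-318-3p had 6.94, 27.5 and 0 RPM at Pe day 3, 16.1, 0 and 44.4 RPM at Pe day 0, and 4.24, 11.02 and 0 RPM in mock. So miR-318-3p was seen in all 3 groups, in 6 of 9 libraries. miR-994-5p had 7.27 RPM in Pe day 0 replicate 3 and 5.51 RPM in mock replicate 2, and was listed at 0 elsewhere. The list's sum was 0 to 27.5 RPM at Pe day 3, 0 to 129 RPM at Pe day 0 and 0 to 16.5 RPM in mock, and 3 of its 6 rows stood at 0 everywhere.

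The miR-310 cluster on chromosome 2R, which is expressed in the germline and also acts at the larval synapse, followed the same library. miR-311-3p had 36.3 RPM in Pe day 0 replicate 3 and was listed at 0 in the other 8 libraries. miR-312-3p had 4.63, 0 and 8.89 RPM at Pe day 3, 0, 0 and 71.1 RPM at Pe day 0, and 0, 8.26 and 0 RPM in mock. miR-310-3p was seen only in Pe day 0 replicate 3, at 4.04 RPM. The other 9 of 12 rows of this list, miR-313 among them, stood at 0 in every library. Summed over the cluster, Pe day 0 replicate 3 had 111 RPM, against at most 8.89 RPM elsewhere.

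The 6 scarce rows of these lists carried 241 of the 531 RPM that scarce miRNAs had in Pe day 0 replicate 3, against 0 to 27.5 RPM in the other 8 libraries. These rows were taken out after their values in that library were seen, so a fall there was fixed in advance. Without them the scarce miRNAs summed to 291 RPM in that library, and the other 8 lay between 160 and 329 RPM. At equal depth its expected number of scarce miRNAs was then 16.2, and the other 8 lay between 10.1 and 17.2. Whether that library held ovary tissue, and any part of it in its other miRNAs, was not tested.

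**Figure D3:**
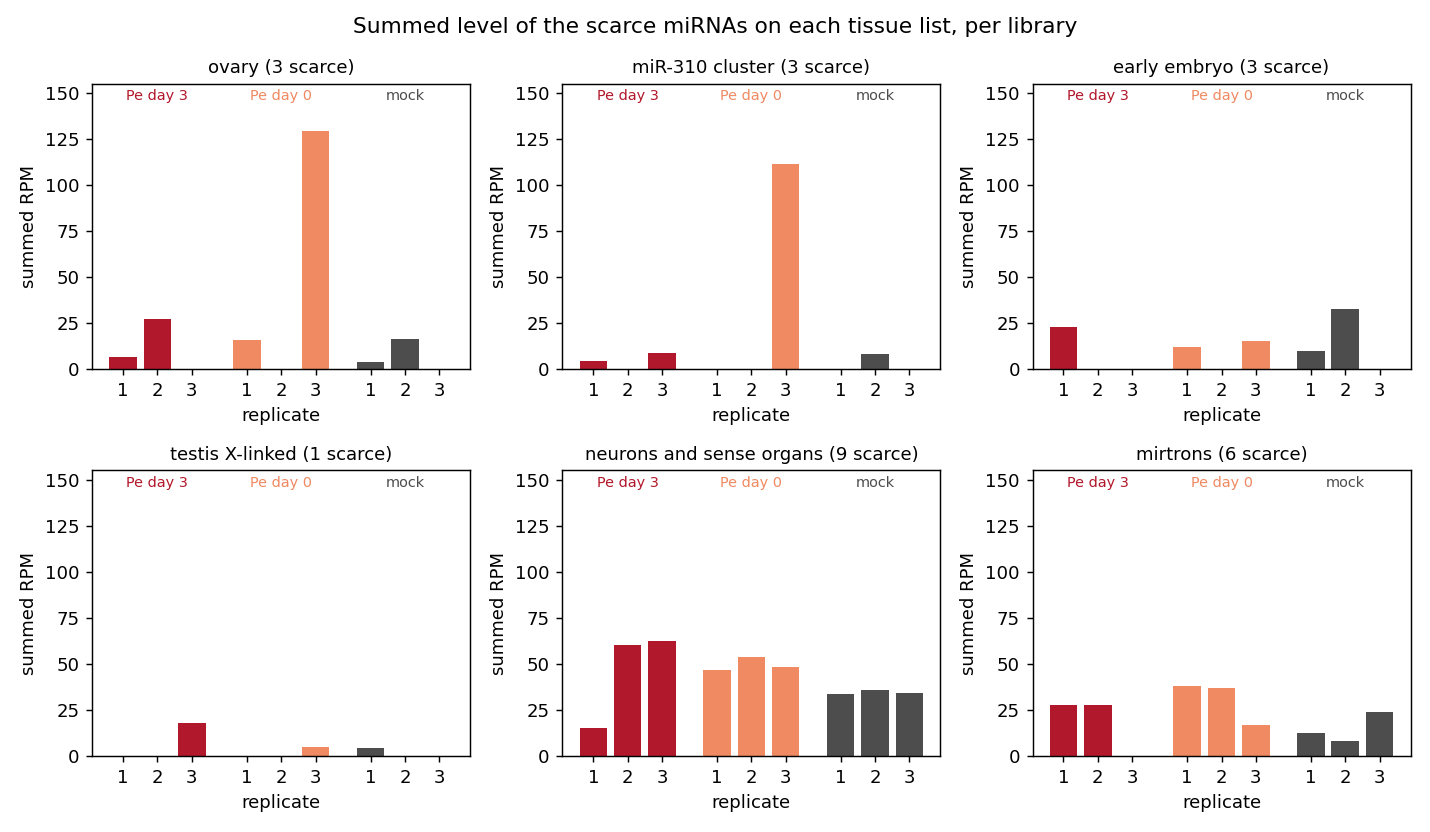
Summed RPM of the scarce miRNAs on 6 lists, per library (bars, by group and replicate), with the number of scarce rows in each panel title. The ovary and miR-310 cluster bars stand at 129 and 111 RPM in Pe day 0 replicate 3 and at most at 27.5 and 8.89 RPM elsewhere, while the neuron and mirtron lists spread over most libraries.

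The miR-309 cluster on chromosome 2R, which clears maternal transcripts in the early embryo, had 3 of 14 rows above 0. miR-286-3p had 13.9, 0 and 0 RPM at Pe day 3, 12.3, 0 and 13.7 RPM at Pe day 0, and 9.89, 24.8 and 0 RPM in mock. It was thus present in 5 of 9 libraries and in each group. miR-6-3p was listed in Pe day 0 replicate 3 at 1.62 RPM and in mock replicate 2 at 8.26 RPM, and miR-5-5p in Pe day 3 replicate 1 at 9.26 RPM. miR-309, miR-3 and miR-4 of the same cluster stood at 0. The list summed to 0 to 23.1 RPM at Pe day 3, 0 to 15.3 RPM at Pe day 0 and 0 to 33.05 RPM in mock.

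The testis cluster from miR-959 to miR-964 stood at 0 in all 12 rows. Of 26 rows of X-linked testis hairpins, miR-982-5p was above 0, with 0, 0 and 17.8 RPM at Pe day 3, 0, 0 and 4.85 RPM at Pe day 0, and 4.24, 0 and 0 RPM in mock. It was seen in 1 library of each group, at 3 to 6 reads.

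The scarce rows on the list of neurons and sense organs were low, and the defining marker was absent. Among them, miR-987-5p, miR-7-5p and miR-137-3p were listed in 9, 8 and 5 libraries, and the others in at most 3. Whether these reads came from neurons was not tested. miR-124, expressed throughout the nervous system, was listed at 0 in all 9 libraries in both arms. The list had 10 of 24 rows above 0, and 9 of these were scarce. The 9 scarce rows summed to 15.04 to 62.3 RPM at Pe day 3, 46.9 to 53.9 RPM at Pe day 0 and 33.9 to 35.8 RPM in mock. With miR-190-5p, the row that was not scarce, the list summed to 109 to 258 RPM at Pe day 3, 169 to 206 RPM at Pe day 0 and 105 to 162 RPM in mock.

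miR-987-5p was the scarce miRNA closest to the threshold and the most evenly seen. It had 12.7, 20.02 and 8.89 RPM at Pe day 3, 13.6, 33.7 and 17.8 RPM at Pe day 0, and 18.4, 19.3 and 14.1 RPM in mock. The 3 groups overlapped, and in limma its log2 change was -0.51 ± 0.49 SE for Pe day 3 against mock (adjusted p = 0.641) and 0.15 ± 0.49 SE for Pe day 0 against mock (adjusted p = 0.993).

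miR-7-5p, which stabilises photoreceptor and sensory organ fates, ranged widely at Pe day 3. It had 0, 40.04 and 53.4 RPM at Pe day 3, 13.6, 13.5 and 4.04 RPM at Pe day 0, and 8.48, 5.51 and 8.03 RPM in mock. Of the Pe day 3 libraries 2 lay above all others and the remaining 1 was listed at 0, and the log2 change of Pe day 3 against mock was 0.67 ± 0.78 SE (limma adjusted p = 0.721). Its other arm, miR-7-3p, had 4.94 RPM in Pe day 0 replicate 1 and was listed at 0 elsewhere. The hairpin lies in an intron of HnRNP-K on chromosome 2R.

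The remaining neuronal and sensory rows were single or rare sightings. miR-285-5p, of a hairpin that acts in glia of the blood-brain barrier, had 2.31 RPM in Pe day 3 replicate 1, 6.74 and 10.5 RPM in Pe day 0 replicates 2 and 3, and was listed at 0 in mock. miR-1000-5p, which limits glutamate loading in the brain, had 1.62 RPM in Pe day 0 replicate 3. miR-210-3p, of photoreceptors, and miR-980-5p, of a hairpin that restrains memory, each had 2.42 RPM there. miR-263b-5p, which protects bristle cells from death, had 4.85 RPM in the same library. Each of these 4 was listed at 0 in the other 8 libraries, so 4 of the 9 rows were seen in the deepest library and nowhere else.

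From the bithorax complex, the Hox region that specifies the posterior body, miR-iab-4-5p had 4.63 RPM in Pe day 3 replicate 1, and the other 3 rows stood at 0. Of muscle, miR-133-3p had 1.62 RPM (2 reads) in Pe day 0 replicate 3 and was listed at 0 in the other 8 libraries. Its partner in muscle, miR-1-3p, was not scarce. The muscle list, nearly all of it miR-1-3p, summed to 267 to 382 RPM at Pe day 3, 64.2 to 140 RPM at Pe day 0 and 76.3 to 110 RPM in mock. Every Pe day 3 library thus lay above the others. Of all 145 miRNAs above 0, 13.8% had groups that did not overlap between Pe day 3 and Pe day 0, and 18.6% between Pe day 3 and mock. The part of muscle RNA in the other scarce miRNAs was not tested.

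miR-137-3p had the smallest limma adjusted p among the 62 in the 3 contrasts. miR-137 is a brain miRNA in mammals, and its fly hairpin lies on chromosome 2R outside other annotated genes. It was listed at 0 in all 3 Pe day 3 libraries, had 14.8, 0 and 4.85 RPM at Pe day 0, and 7.06, 11.02 and 12.05 RPM in mock. In reads, this was 0, 0 and 0 at Pe day 3 out of 1488561 miRNA reads, 12, 0 and 6 at Pe day 0, and 5, 4 and 6 in mock out of 1568839. The Pe day 3 and mock libraries did not overlap, and the Pe day 0 libraries spanned both.

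The log2 change of miR-137-3p for Pe day 3 against mock was -1.87 ± 0.72 SE, with an unadjusted p of 0.0166 and an adjusted p of 0.150 in limma. limma voom on the recovered reads called it lower (adjusted p = 0.0216), and over all 17 settings tried, the main one included, the limma adjusted p ran from 0.0216 to 0.351. The authors' deposited table gave it a log2 fold change of -4.95 with a standard error of 1.88 and an adjusted p of 0.0598 for Pe day 3 over mock. With a group at 0, the limma change depends on the added constant, and none of these fitted changes is a bound. The Pe day 3 flies were also older than those of mock and of Pe day 0. Age and treatment cannot be told apart in this contrast, and neither can age and day in any contrast of Pe day 3 with Pe day 0.

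Group differences across the 62 were tested in 1 limma model of all 145 miRNAs above 0, on log2(scaled RPM + 4.02), where the added constant equals 2 reads at the median depth. Libraries were scaled by TMM (trimmed mean of M values), a call needed a Benjamini-Hochberg adjusted p under 0.05 over the 145, and errors are limma standard errors. For Pe day 3 against Pe day 0, limma called 0 of the 62, where 2.76% of all 145 were called, and 3 of the 62 had an unadjusted p under 0.05, against 11.7% of all. For Pe day 0 against mock it called 0 of the 62, where 0.0% of all were called, and 3 of the 62 had an unadjusted p under 0.05, against 15.2% of all. For Pe day 3 against mock it called 0 of the 62, where 6.9% of all were called. There, 1 of the 62 had an unadjusted p under 0.05, against 14.5% of all. By the rule, no member reached 20 RPM in all 3 libraries of a group. This limits how many of the 62 could be called or have groups that did not overlap. A lack of response is not read from the counts of 0. limma voom called 0, 0 and 1 of the 62 in the 3 contrasts, in that order, beside 4, 0 and 9 of all 145. Before adjustment, 4, 5 and 1 of the 62 were below 0.05 in limma voom. The authors' deposited table covers only the comparisons with mock. It called 0 for Pe day 0 over mock and 0 for Pe day 3 over mock, with 0 and 1 below 0.05 before adjustment, and held an adjusted p for 0 and 30 of the 62.

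The median log2 change over the 62 was -0.24 for Pe day 3 against Pe day 0, 0.21 for Pe day 0 against mock and 0.00 for Pe day 3 against mock, beside -0.15, 0.17 and 0.04 over all 145. Without Pe day 0 replicate 3 the first 2 of these medians were 0.00 for the 62 and for all 145. The groups' RPM did not overlap for 2 of the 62 between Pe day 3 and Pe day 0, where 13.8% of all did so, for 3 between Pe day 0 and mock, where 16.6% did, and for 2 between Pe day 3 and mock, where 18.6% did. Besides miR-137-3p these were miR-9b-3p, miR-2535b-3p, miR-283-3p, miR-317-5p and miR-2a-2-5p. miR-9b-3p, miR-2535b-3p and miR-283-3p, with miR-279-5p and miR-13b-2-5p, also had an unadjusted p under 0.05 in some contrast.

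**Figure D4:**
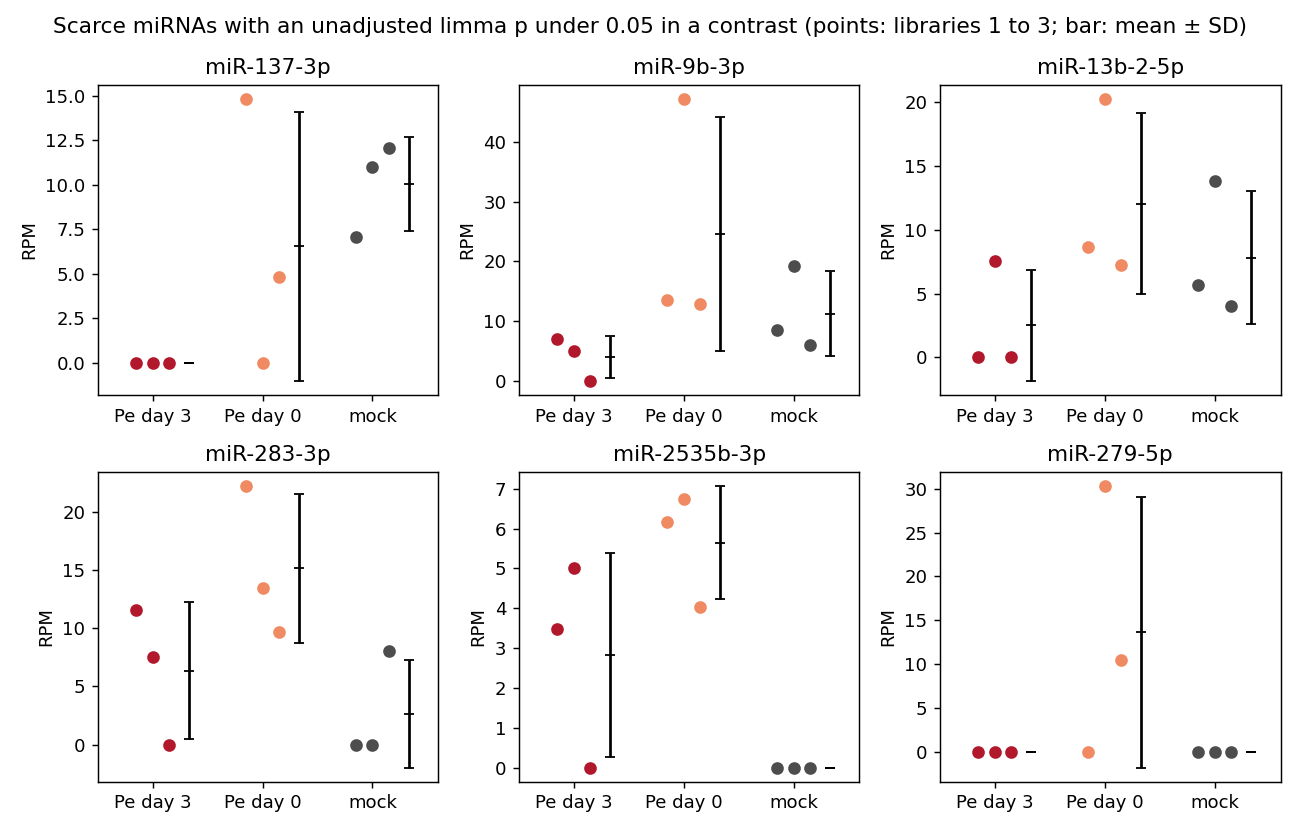
RPM of the 6 scarce miRNAs with an unadjusted limma p under 0.05 in any contrast, by group (points are libraries 1 to 3 from left to right, and the bar beside them is the mean with its SD). miR-137-3p sits at 0 in all Pe day 3 libraries and at 7.06 to 12.05 RPM in mock, and miR-2535b-3p at 4.04 to 6.74 RPM at Pe day 0 and at 0 in mock.

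miR-9b-3p had the smallest p among the 62 for Pe day 3 against Pe day 0. Its hairpin lies with those of miR-9c, miR-79 and miR-306 in an intron of grp, the fly checkpoint kinase Chk1, on chromosome 2L from 16698744 to 16698834 on the plus strand. It had 6.94, 5.01 and 0 RPM at Pe day 3, 13.6, 47.2 and 12.9 RPM at Pe day 0, and 8.48, 19.3 and 6.02 RPM in mock. Every Pe day 0 library lay above every Pe day 3 library, and the log2 change was -1.83 ± 0.64 SE (unadjusted p = 0.00908, limma adjusted p = 0.165). Its more abundant arm, miR-9b-5p, averaged 64.9 ± 19.7 RPM at Pe day 3, 70.1 ± 25.7 RPM at Pe day 0 and 35.6 ± 3.49 RPM in mock (SD, n = 3 each). The log2 change of that arm for Pe day 3 against Pe day 0 was -0.28 ± 0.35 SE (limma adjusted p = 0.677), and the difference between the arms was not tested.

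miR-2535b-3p was low but regular. It had 3.47, 5.01 and 0 RPM at Pe day 3, 6.17, 6.74 and 4.04 RPM at Pe day 0, and was listed at 0 in all 3 mock libraries. Its hairpin lies in an intron of Abca3, a lipid transporter gene, on the X chromosome, within 10 kb of miR-1007. The log2 change for Pe day 0 against mock was 1.29 ± 0.61 SE (unadjusted p = 0.0476, limma adjusted p = 0.314), from 2 to 5 reads a library.

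Other arms seen at Pe day 0 and rarely in mock were miR-283-3p and miR-279-5p. miR-283-3p, from a cluster with miR-12 and miR-304 in an intron of Gmap on the X chromosome, had 11.6, 7.51 and 0 RPM at Pe day 3, 22.2, 13.5 and 9.69 RPM at Pe day 0, and 0, 0 and 8.03 RPM in mock. Its log2 change for Pe day 0 against mock was 1.70 ± 0.75 SE (unadjusted p = 0.0332, limma adjusted p = 0.309). miR-279-5p, the minor arm of a hairpin that blocks the formation of CO2-sensing neurons, had 0, 30.3 and 10.5 RPM at Pe day 0 and was listed at 0 in the other 6 libraries. Its log2 change was -1.63 ± 0.68 SE for Pe day 3 against Pe day 0 (unadjusted p = 0.0255, limma adjusted p = 0.308) and 1.63 ± 0.68 SE for Pe day 0 against mock (unadjusted p = 0.0255, limma adjusted p = 0.284). Both contrasts share the Pe day 0 libraries. Without Pe day 0 replicate 3 the log2 changes of miR-279-5p were -1.56 and 1.56, each with an unadjusted limma p of 0.125.

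miR-13b-2-5p, from a K box miRNA hairpin in an intron of CCT2, had 0, 7.51 and 0 RPM at Pe day 3, 8.64, 20.2 and 7.27 RPM at Pe day 0, and 5.65, 13.8 and 4.02 RPM in mock. Of the Pe day 3 libraries 1 lay within the range of the other groups, and the log2 change for Pe day 3 against Pe day 0 was -1.51 ± 0.70 SE (unadjusted p = 0.0412, limma adjusted p = 0.395).

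miR-2a-2-5p had 24.3, 35.0 and 13.3 RPM at Pe day 3, 12.3, 6.74 and 18.6 RPM at Pe day 0, and 7.06, 11.02 and 12.05 RPM in mock. All Pe day 3 libraries lay above all mock libraries by the deposited RPM, with a log2 change of 0.74 ± 0.53 SE (limma adjusted p = 0.579). Its hairpin and that of miR-2a-1 lie in an intron of spi, the EGF receptor ligand Spitz, on chromosome 2L. miR-2a-1-5p had 5.79, 10.01 and 0 RPM at Pe day 3, 0, 16.9 and 2.42 RPM at Pe day 0, and 4.24, 0 and 0 RPM in mock. The opposite arm of both hairpins is counted in a row shared with miR-2c.

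miR-317-5p, the minor arm of a miR-277 cluster hairpin, had 5.79, 15.02 and 17.8 RPM at Pe day 3, 4.94, 0 and 4.85 RPM at Pe day 0, and 7.06, 11.02 and 8.03 RPM in mock. The Pe day 0 libraries lay below all others, while the changes were 1.07 ± 0.65 SE for Pe day 3 against Pe day 0 (limma adjusted p = 0.481) and -0.94 ± 0.65 SE for Pe day 0 against mock (limma adjusted p = 0.523), both log2. Its abundant arm miR-317-3p averaged 2932 RPM at Pe day 3, 3694 RPM at Pe day 0 and 2000 RPM in mock, an order that differs from that of the minor arm.

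Some scarce miRNAs were the less abundant strand of a hairpin. For 11 of the 62, the other arm of the same hairpin reached the threshold. Another 4, miR-2a-1-5p, miR-2a-2-5p, miR-13b-2-5p and miR-276b-3p, faced a row shared with other hairpins. For 39 the other arm stood at 0 in all 9 libraries, 4 rows were both arms of miR-7 and miR-284, and 4 had no other arm in the table.

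The share kept of the minor strand varied widely. miR-12-3p had 2 reads in all, or 0.626 reads per 1000 reads of miR-12-5p, and miR-317-5p had 2.20 per 1000 of miR-317-3p. miR-279-5p had 9.54 and miR-283-3p 9.79 reads per 1000 reads of the other arm. miR-10404-3p, from copies of a hairpin that lie partly within precursor ribosomal RNA, had 37.6 per 1000. It was listed in Pe day 3 replicate 3 at 17.8 RPM and in Pe day 0 replicate 2 at 10.1 RPM.

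At the upper end, miR-9b-3p had 221 reads per 1000 reads of miR-9b-5p, miR-125-3p 169 per 1000 of miR-125-5p and miR-9a-3p 120 per 1000 of miR-9a-5p. miR-306-3p had 113, miR-970-5p 89.9 and miR-998-3p 52.6 per 1000 of the other arm. miR-998 shares an intron of E2f1 with miR-11 and limits apoptosis in the fly. Since members were kept below the threshold, the ratio cannot be high where the other arm is abundant, and nothing is read from its relation to that arm's level.

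**Figure D5:**
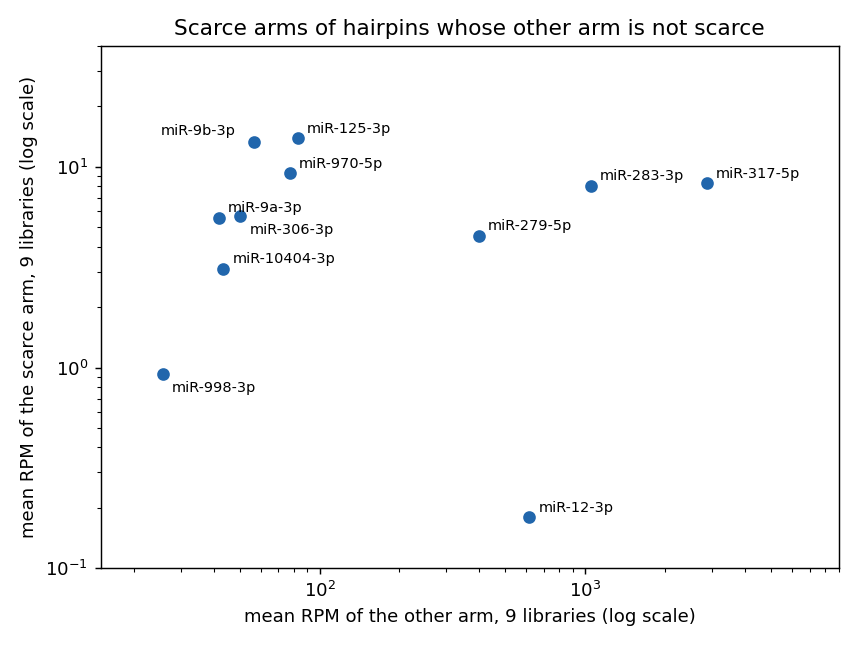
Mean RPM over the 9 libraries of the 11 scarce arms (vertical axis, limited by the threshold that chose them) against the mean RPM of the other arm of the same hairpin (horizontal axis), both on log scales. miR-317-5p stays at 8.26 RPM beside an arm at 2875 RPM, while miR-9b-3p reaches 13.3 RPM beside an arm at 56.9 RPM.

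Besides miR-9b-3p, miR-317-5p and miR-283-3p, described above, 3 minor arms were listed in at least 6 libraries. miR-125-3p, of the let-7 complex hairpin that acts in the timing of metamorphosis, had 13.9, 7.51 and 13.3 RPM at Pe day 3, 11.1, 16.9 and 20.2 RPM at Pe day 0, and 2.83, 24.8 and 14.1 RPM in mock. miR-970-5p had 9.26, 15.02 and 13.3 RPM at Pe day 3, 0, 10.1 and 5.65 RPM at Pe day 0, and 4.24, 22.0 and 4.02 RPM in mock. miR-306-3p had 4.63, 7.51 and 13.3 RPM at Pe day 3, 9.88, 0 and 10.5 RPM at Pe day 0, and 0, 5.51 and 0 RPM in mock. In all 3 the groups overlapped. miR-9a-3p, whose hairpin guards sensory organ number, reached 19.4 RPM in Pe day 0 replicate 3 and was listed at 0 in 4 libraries.

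The highest single value of a scarce miRNA belonged to miR-284-5p, of a hairpin that regulates glutamate receptors at the larval neuromuscular junction. It had 9.26, 15.02 and 116 RPM at Pe day 3, 11.1, 0 and 23.4 RPM at Pe day 0, and 14.1, 13.8 and 0 RPM in mock. The value of 116 RPM was 26 reads in the shallowest library, while the deepest had 29 reads, so 1 library stood far above the rest and the groups overlapped. Its hairpin lies in an exon of Octbeta2R, an octopamine receptor gene, on chromosome 3R from 12551515 to 12551614 on the minus strand. miR-284-3p had 7.27 RPM in Pe day 0 replicate 3 and was listed at 0 elsewhere.

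miR-965-5p, of a hairpin that limits proliferation of abdominal histoblasts, was listed in 6 libraries. It had 8.10, 0 and 17.8 RPM at Pe day 3, 0, 10.1 and 4.85 RPM at Pe day 0, and 8.48, 16.5 and 0 RPM in mock. Each group had 1 library at 0. miR-276b-3p was listed in 4 libraries at 6.94 to 11.3 RPM, and since its sequence nearly equals that of miR-276a-3p, the counting could have split reads between them.

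Mirtrons made up 6 of the scarce rows. Of the 23 mirtron rows in the table, 12 were above 0. miR-1010-3p, in an intron of SKIP on chromosome 3R from 22292879 to 22292949 on the plus strand, had 15.04, 7.51 and 0 RPM at Pe day 3, 25.9, 13.5 and 12.1 RPM at Pe day 0, and 12.7, 8.26 and 20.1 RPM in mock. It was listed in 8 of 9 libraries, and the groups overlapped. miR-1013-3p, in an intron of wts, the Hippo pathway kinase Warts, had 20.02 RPM in Pe day 3 replicate 2, 12.3 and 1.62 RPM in Pe day 0 replicates 1 and 3, and was listed at 0 elsewhere.

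miR-1008-5p had 8.10 RPM in Pe day 3 replicate 1 and 23.6 RPM in Pe day 0 replicate 2, from 7 reads each, and was listed at 0 in the other 7 libraries. miR-1004-3p, miR-1006-3p and miR-1009-3p were each seen in 1 library, at 3.23 to 4.63 RPM. The 6 rows summed to 0 to 27.8 RPM at Pe day 3, 17.0 to 38.3 RPM at Pe day 0 and 8.26 to 24.1 RPM in mock. All 23 mirtron rows summed to 410 to 816 RPM at Pe day 3, 388 to 509 RPM at Pe day 0 and 172 to 432 RPM in mock. The annotation places 5 of the 6 in introns and miR-1009 in an exon of CG3860.

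A few single-library values passed 20 RPM without any tissue list behind them. miR-2501-5p, in an intron of Nulp1, had 26.7 RPM in Pe day 3 replicate 3, from 6 reads. miR-966-5p, in an intron of the purine synthesis gene Pfas, had 25.0 RPM in Pe day 3 replicate 2, from 10 reads. Both were listed at 0 in the other 8 libraries, the deepest included.

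The remaining members off the lists were lower still. miR-252-5p had 5.79, 0 and 0 RPM at Pe day 3, 4.94, 0 and 8.08 RPM at Pe day 0, and 2.83, 0 and 0 RPM in mock. miR-274-5p, of a hairpin expressed in glia, had 6.94, 5.01 and 0 RPM at Pe day 3, 0, 0 and 3.23 RPM at Pe day 0, and 4.24, 0 and 0 RPM in mock. miR-957-3p had 15.04, 0 and 0 RPM at Pe day 3, 0, 0 and 4.04 RPM at Pe day 0, and 7.06, 0 and 8.03 RPM in mock. All 3 were listed in 4 libraries, spread over the 3 groups.

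miR-307a-3p and miR-11182 were listed in 3 libraries each, up to 10.1 and 5.79 RPM, and miR-87-3p, of a hairpin needed for dendrite regeneration, in 2 libraries, up to 5.65 RPM. Pe day 0 replicate 2 alone listed miR-315-5p, an activator of Wingless signalling, and miR-4919-3p, both at 10.1 RPM. miR-9372-3p, in an exon of the immune caspase gene Dredd, had 7.41 RPM in Pe day 0 replicate 1 alone. miR-4969-5p had 3.23 RPM in Pe day 0 replicate 3 alone. Of the mock set, miR-1001-5p had 16.1 RPM and miR-2500-5p 4.02 RPM in replicate 3, and miR-927-5p and miR-4986-3p each had 2.83 RPM in replicate 1.

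Genome position was compared by row, so a hairpin whose arms fell in different sets was counted in each. The other arm stood at 0 everywhere for 39 of the 62 and reached the threshold for 11. The sets are thus not independent, and likeness between them is partly built in. Of the 62, 25 (40.3%) lie in an intron of a protein-coding gene on the same strand, against 24 of 68 matched rows (35.3%) among the miRNAs that reached the threshold and 111 of 320 (34.7%) among those at 0 everywhere. Another hairpin lies within 10 kb on the same strand for 22 of the 62 (35.5%), for 31 of 68 (45.6%) of those above the threshold and for 86 of 320 (26.9%) of those at 0. By chromosome, 16 of the 62 are on 2R, 14 on 3R, 11 on 2L, 10 on 3L and 10 on X, and miR-10404 has copies on X and in ribosomal DNA. The tissue and mirtron lists together named 27 of the 62 rows.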

How the data were processed

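Small RNA libraries of adult midguts were prepared with a TruSeq kit from 2 µg of TRIzol-purified total RNA, per the labels' protocols. The deposited expression table holds RPM, and its name mentions miRge. The aligner, miRNA release and build are not given in the sources used here. A second table, which the authors deposited for their own comparisons, holds, per the file headers, a mean signal, log2 fold changes, a test score and p-values with the column names of DESeq2, and version 1.22.0 of it is named in the submitters' processing notes. Its unnamed contrasts matched Pe day 0 and Pe day 3 over mock (r = 0.998 and 0.999 with RPM log ratios over 47 miRNAs whose deposited mean exceeded 50).

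Reads per library were recovered from the RPM steps, with every value within 1.27e-06 of a whole read. Deviations from the group means in same-numbered Pe day 0 and mock libraries gave r of 0.243, 0.428 and 0.359. Whether these libraries were paired was not tested and is not stated in the labels. Members and lists were chosen with earlier results of these data known. RPM are not counts, so limma 3.58.1 in R 4.3.3 was run on log2 values with trended, robust variances, 9 libraries and no replicate block, after a test on simulated data; limma voom on the recovered reads was an alternative, beside other scalings, pseudocounts and filters, the replicate block and each library left out. TMM trimmed 30% of log ratios and 5% of abundances. Named miRNAs were those with 20 RPM in a library, those listed in at least 6 libraries, any called, list members, those nearest the threshold, and minor arms with the most and least abundant partners; others were named after their values were seen. Hairpins were matched by name to Ensembl 115 (BDGP6), all 62 with a match. No sequences are shown. Reads without molecular identifiers are not independent molecules.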

Additional observations from a re-analysis of the deposited data

How the results depend on the processing

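The count of scarce miRNAs called by limma was 0 in each contrast. It stayed at 0 under the replicate block, RPM as deposited, median-of-ratios factors, pseudocounts worth 1.004 and 20.1 RPM, and a filter on 3 libraries. Each of 9 fits without a library also called 0. The exception was limma voom, which called 1 for Pe day 3 against mock, miR-137-3p, beside 9 of all 145. The cause was not tested. The replicate block called 0 of the 62 in each contrast and changed no call among them. Same-numbered Pe day 3 libraries gave r from -0.257 to 0.222 with Pe day 0 and from -0.025 to 0.080 with mock. The 7 changes with an unadjusted p under 0.05 kept their sign in every setting that gave a value. With a group at 0 in every library, the signs of miR-137-3p, miR-2535b-3p and miR-279-5p could hardly change. The groups of miR-9b-3p and miR-283-3p did not overlap, which also limits a change of sign. The kept signs are therefore not read as support. The number listed was less stable. It was 35 at Pe day 3, 52 at Pe day 0 and 33 in mock. At least 4 reads left 30 at Pe day 3, 41 at Pe day 0 and 20 in mock. Thinning to equal depth left 26.1, 33.6 and 22.0 in the same order. A threshold of 10 RPM (48 members) left 22, 38 and 19, and a threshold of 50 RPM (75 members) gave 48, 65 and 46. Leaving out a library gave 23 to 32 at Pe day 3, lowest without replicate 1, 32 to 50 at Pe day 0, lowest without replicate 3, and 25 to 29 in mock. Summed levels moved by less than 1 SD between libraries under TMM scaling. They also did so without the ovary and miR-310 cluster lists, an alternative chosen after seeing the data. Leaving out 1 of 3 libraries cannot move a group mean by 1 SD, so those means are given instead. They ran from 253 to 307 RPM at Pe day 3, 274 to 424 RPM at Pe day 0 and 162 to 209 RPM in mock. The lowest at Pe day 0 was without replicate 3, against 360 RPM with all libraries. Depth limits all of this: 20 RPM is 4.5 reads in the shallowest library.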
